A study of Mus musculus with 4 samples.

Results

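The MYC network was examined gene by gene in single mouse embryonic stem (ES) cells. The members were 9 genes chosen by symbol, Myc, Mycn, Mycl, Max, Mxd3, Mxd4, Mnt, Mga and Mlx, out of 46078 gene rows in the count tables. Each of the 9 was found under its Ensembl identifier in the tables of both media. Of these, 5 (Myc, Mycn, Max, Mga and Mlx) reached a mean of 20 normalized counts over the 4 groups, a level that 8730 genes reached. The other 4 were kept and are given by their counts and by the cells that held them.

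MYC, MYCN and MYCL are transcription factors that bind DNA only as dimers with MAX, chiefly at the E-box, and raise the output of genes for ribosome building, nucleotide synthesis and growth. MXD3, MXD4 and MNT also pair with MAX and bring the SIN3 corepressor to the same sites, and MGA pairs with MAX inside a Polycomb complex, PRC1.6, that keeps germline genes silent in ES cells. MLX is the corresponding partner of the glucose sensors MLXIP and MLXIPL and can also pair with MNT and some MXD proteins. In mouse ES cells MYC and MYCN are known to sustain growth and self-renewal, and Mycn is the form that such cells express strongly.

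The cells were wild-type mouse ES cells that had all been growing in 2i, N2B27 medium whose added inhibitors of MEK and GSK3 hold them in the naive state. The labels name the medium 2i, and the study describes its culture medium as also holding the cytokine LIF, so N2B27 against 2i can be the removal of all of these together. A first sort on light scatter, forward and side, collected small cells, a gate that largely takes cells leaving mitosis or in G1, or left the cells ungated, and the cells were plated on laminin for 6 h in 2i again or in N2B27, the medium in which naive pluripotency is lost. Single cells were then sorted into wells, and each was prepared by Smart-seq2, a full-length RNA-seq method without molecular identifiers. This gave 4 groups, 2i small, 2i ungated, then N2B27 small, then N2B27 ungated, and values listed for the 4 groups follow this order. Each is 1 sample of 24 cells, of which 12, 22, 20 and 21 passed the filter on cells. The comparisons ask how members differed between early cell-cycle and ungated cells, and between cells leaving and cells staying in 2i.

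Each group is 1 sample, so no test between groups was possible and no p-value is given. Values are counts divided by the size factor of the cell (normalized counts), and a difference is the log2 ratio of 2 group means with 1 added to each. The media were on separate plates and lanes, with which they cannot be told apart, and the gate cannot be told apart from the index rows that its cells were given on the plate. Counts are reads, not molecules, and the 95% intervals of summed counts cover counting error only. Those of shares of cells treat the cells of 1 sample as independent draws, so they hold no spread between samples and do not test a difference between groups. The kept cells held between 1364155 and 4844170 counts on genes. The median number of genes detected was 7603 in small and 9515.5 in ungated 2i cells, and 7462.5 and 8200 in N2B27. Of gene and spike-in counts together, spike-ins took a median 3.47% in small and 1.28% in ungated 2i cells, and 2.45% and 1.14% in N2B27. These values moved with the gate, and their part in the differences between gates was not tested. Among the small cells in 2i, spike-ins took 40.9% of the counts of 1 cell, whose size factor was 0.133 (the spike-in-rich cell), and 1 other cell had 15712 genes (the gene-rich cell). Where leaving out the first ends the 2-fold call of a gene named here, both values are given. The 5 ES cell markers (Pou5f1, Sox2, Nanog, Zfp42 and Esrrb) had counts in every group, with a summed level per cell between 113 and 12704.5 normalized counts. The 3 markers of 2-cell-like cells and the 4 of fibroblasts reached at most 1.25 in any cell, while at least 10 counts of a trophoblast marker lay in 2, 7, 4 and 6 cells and of a primitive endoderm marker in 0, 4, 3 and 2 cells of the 4 groups.

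Mycn was the leading MYC gene in every group. Per kilobase of exon, its mean was 73.9 normalized counts in 2i small, 164 in 2i ungated, 66.1 in N2B27 small and 142 in N2B27 ungated cells. Mlx and Max followed, at 51.7 and 48.1 per kilobase in 2i small cells and at 146 and 50.9 in 2i ungated cells. In N2B27 small cells Mlx was at 106 per kilobase, with 29.7% of its counts in 1 cell, and Max at 29.2. Without the highest cell of each gene Mlx was at 66.7 and Mycn at 50.1 there. In N2B27 ungated cells Mlx stood at 90.1 and Max at 71.4. Mga, by far the longest of these genes, lay between 9.28 and 20.5 per kilobase, and Myc between 4.04 and 17.4. Mxd3 ranged from 0.111 in N2B27 small cells to 21.9 in N2B27 ungated cells, where it stood above Myc and Mga. Without the highest cell of each gene Mxd3 was at 12.9 there, below Myc at 14.3 and above Mga at 7.74. Mycl lay between 1.62 and 4.07, Mnt between 0.193 and 1.33, and Mxd4 between 0 and 0.504. The ranges over cells of neighbours in this order overlapped in every group.

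**Figure D1:**
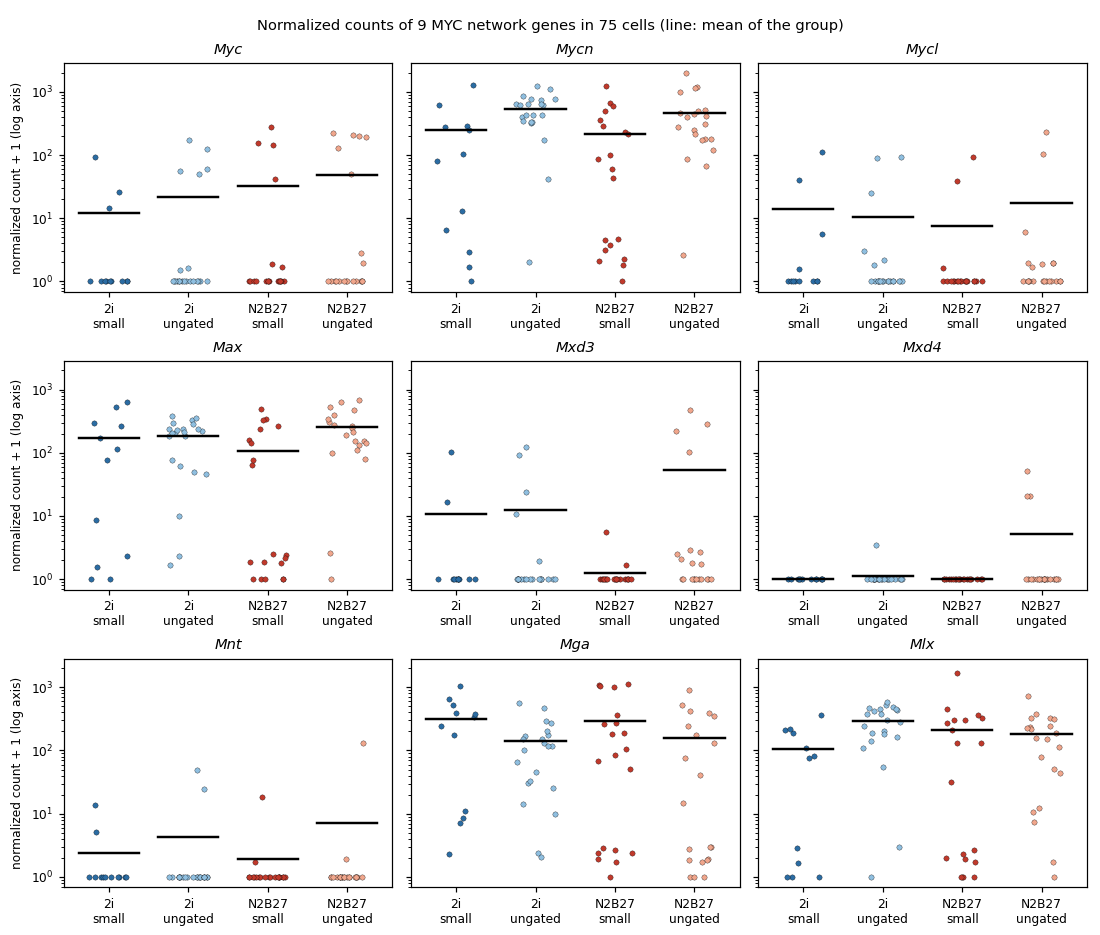
Each panel plots 1 member, with a point for each of the 75 kept cells in its group of medium and gate. The vertical axis is the normalized count plus 1 on a log axis and the line is the mean of the group. Mycn, Max, Mga and Mlx split the cells into a high and a low set, with more low cells among the small cells for Mycn, Max and Mlx, while Myc, Mycl, Mxd3, Mxd4 and Mnt lay at 0 in most cells.

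The values of each member fell into cells with many counts and cells with few or none. A limit of 10 counts, chosen after the values were seen, was used to count the cells on the high side. The median gene of the 8730 reached it in 50%, 77.3%, 40% and 57.1% of cells of the 4 groups. Of the 8730 genes, 7403 reached it in a smaller share of small than of ungated cells in 2i, and 6655 did in N2B27.

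Between small and ungated cells in N2B27, Mycn and Max were lower by at least 2-fold in small cells. No member was higher by as much, although Mga, at 0.89, was past 2-fold in 9 of 16 alternatives. That is 2 of 5 members on the lower side, where 17.1% of all 8730 genes lay, and 0 on the higher side, where 11.8% lay. In 2i, Mycn and Mlx were lower by at least 2-fold in small cells (27.8% of all genes were) and Mga was higher (16.3% were). Between N2B27 and 2i in small cells, Myc and Mlx were higher by at least 2-fold in N2B27, as 22.3% of all genes were, and no member was lower, where 19.2% of all genes lay. In ungated cells only Myc among the 5 was higher by at least 2-fold, against 7.49% of all genes, and none was lower, against 9.92%. Myc reached the mean of 20 partly through its N2B27 groups, with means of 10.98, 20.9, 30.9 and 47.4 in the 4 groups. Its calls as higher in N2B27 are therefore not independent of the filter. The median log2 ratio of all genes was −0.12, −0.36, 0.09 and −0.03 in these 4 comparisons in order, and that of the 5 members was −0.60, −0.87, −0.12 and 0.13. The comparisons share groups with each other and are not independent.

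**Figure D2:**
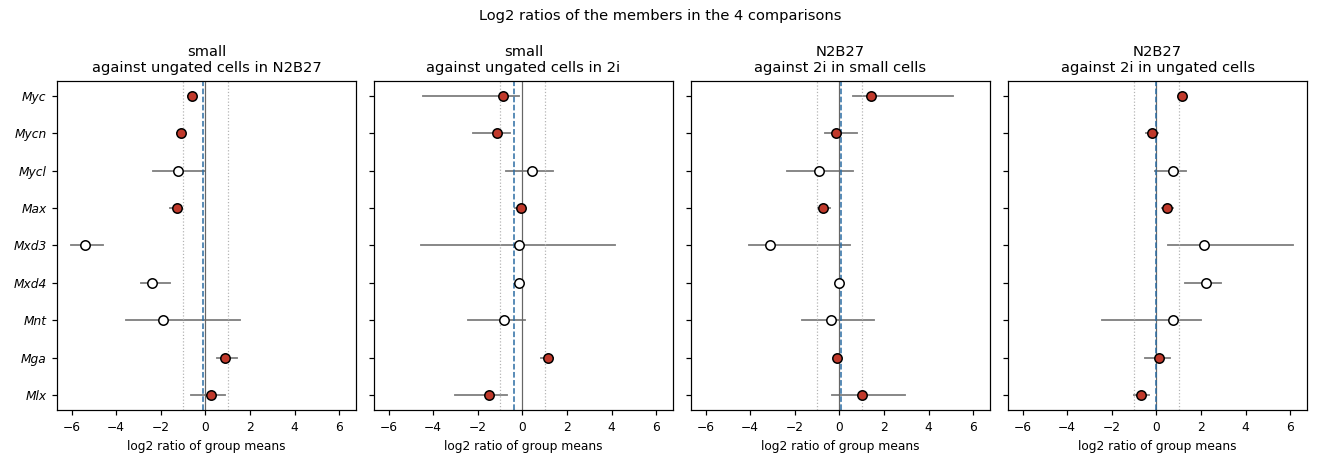
Each panel plots 1 comparison, with the log2 ratio of the 2 group means on the horizontal axis for the 9 members. Filled points mark the 5 members whose mean reached 20 normalized counts, grey bars run over the 4 pairs of index rows of the 2 groups, dotted lines mark 2-fold and the dashed line is the median of all genes. Mycn lay at −1.10 and −1.14 between the gates in the 2 media, and Mga at 0.89 and 1.14.

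Mycn (ENSMUSG00000037169, GRCm38 chromosome 12, 12936093 to 12941914, minus strand) encodes N-MYC. Over the cells its lowest, median and highest normalized counts were 0, 91.1 and 1295 in 2i small, 1.05, 521 and 1232 in 2i ungated, 0, 73.3 and 1221 in N2B27 small, and 1.6, 309 and 1947 in N2B27 ungated cells. The ranges of the gates overlapped in both media, and small cells held more of the low values. At least 10 counts were found in 8 of 12 small (66.7%, exact binomial interval 34.9% to 90.1%) and 21 of 22 ungated 2i cells (95.5%, 77.2% to 99.9%). In N2B27 it was 12 of 20 small (60%, 36.1% to 80.9%) and 20 of 21 ungated cells (95.2%, 76.2% to 99.9%). Small minus ungated, the share differed by −28.8 percentage points in 2i and −35.2 in N2B27, where the median difference over all genes was −21.2 and −12.4. Among the cells with 10 counts the median was 260 in small and 608 in ungated 2i cells, and 259 and 350 in N2B27.

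The group means of Mycn in 2i were 243 (small) and 539 (ungated), a log2 ratio of −1.14. In N2B27 they were 218 and 468, a log2 ratio of −1.10. The ratio of summed counts was −1.08 (counting interval −1.13 to −1.03) in 2i and −1.003 (−1.05 to −0.96) in N2B27. Each group spans 2 index rows of its 1 sample, so the 4 pairs of rows share rows and are no replication. They ran from −2.22 to −0.54 in 2i and from −1.26 to −0.95 in N2B27. Of 16 alternatives, 12 in 2i and 10 in N2B27 kept Mycn at least 2-fold lower. Settings that only left out a 2i small cell could not change the N2B27 ratio. Both spike-in settings gave −1.61 there, where all genes had a median of −0.83. In 2i and N2B27 Mycn was at −0.84 and −0.77 with poscounts size factors, at −0.97 and −0.84 with no filter on cells, and at −0.96 and −0.92 with pooled counts. In the same order all genes had medians of 0.37 and 0.34, −0.26 and −0.22, and −0.12 and −0.03. Mycn was at −0.61 in 2i with size factors from the spike-ins, where all genes had a median of 0.79. In N2B27 it was at −0.91 with scran and −0.92 with fixed limits on cells, against medians of 0.15 and −0.22. Between media the ratios were −0.16 in small and −0.20 in ungated cells, with pairs of rows on both sides of 0. In N2B27 the direction turned when only cells assigned to S phase were used, at 0.80, over 11 small and 4 ungated cells.

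Myc (ENSMUSG00000022346, chromosome 15, 61985391 to 61990374, plus strand) encodes c-MYC, a growth factor response gene. Most cells had no count of it, so the median was 0 in every group, and the highest cell reached 93.4 in 2i small, 171 in 2i ungated, 278 in N2B27 small and 219 in N2B27 ungated cells. At least 10 counts were found in 3 of 12 (25%, 5.49% to 57.2%), 5 of 22 (22.7%, 7.82% to 45.4%), 4 of 20 (20%, 5.73% to 43.7%) and 6 of 21 cells (28.6%, 11.3% to 52.2%) of these groups. Among these few cells the median was 24.8 and 58.5 in small and ungated 2i cells, and 149 and 194 in N2B27. Their ranges overlapped, at 13.4 to 93.4 and 49.2 to 171 in 2i and 40.9 to 278 and 49.1 to 219 in N2B27.

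The means of Myc were 10.98 and 30.9 in small cells of 2i and N2B27, a log2 ratio of 1.41, and 20.9 and 47.4 in ungated cells, a log2 ratio of 1.14. From summed counts, 202 against 768 and 448 against 1088, the ratios were 1.40 (1.18 to 1.63) and 1.34 (1.18 to 1.51). All 4 pairs of index rows were higher in N2B27 in both gates, at 0.60 to 5.09 in small and 1.05 to 1.23 in ungated cells. A single cell held 72.3% of the Myc counts of 2i small cells and 49.9% of those of N2B27 small cells. With the highest cell of each group left out the ratios were 2.08 and 1.43. With the mean of log2 values they were 0.22 and 0.68, and with S cells alone the ratio in small cells was 0.80, none of which reach 2-fold. All genes had medians of −0.18 and −0.62 with the mean of log2 values, and 0.20 with S cells alone. Between the gates Myc had ratios of −0.87 in 2i and −0.60 in N2B27, which do not reach 2-fold, with every pair of index rows below 0. The direction between media in small cells turned to −0.41 with size factors from the spike-ins, where all genes had a median of −1.59. It stood at 1.25 when the gene-rich cell was left out of that scaling, where all genes had a median of 0.62.

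Mycl (ENSMUSG00000028654, chromosome 4, 122995652 to 123002485, plus strand) encodes L-MYC. It had 242, 277, 155 and 429 counts in the 4 groups, with at least 10 counts in 3, 3, 2 and 2 cells. The highest cell held between 60.6% and 80.99% of the counts of its group. Means were 12.99, 9.46, 6.55 and 16.4, below the level at which ratios were counted, and differed by −1.21 between the gates in N2B27 and by 0.42 in 2i on the log2 scale. With so few cells, these ratios rest mostly on 1 cell in each group.

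Max (ENSMUSG00000059436, chromosome 12, 76937269 to 76962201, minus strand) encodes the partner that all MYC, MXD and MNT proteins and MGA share. Its lowest, median and highest normalized counts were 0, 93.6 and 628 in 2i small, 0.689, 208 and 384 in 2i ungated, 0, 1.48 and 483 in N2B27 small, and 0, 214 and 685 in N2B27 ungated cells. The N2B27 small cells were split between low and high, whereas most ungated cells were high. At least 10 counts were found in 9 of 20 small (45.0%, 23.1% to 68.5%) and 19 of 21 ungated N2B27 cells (90.5%, 69.6% to 98.8%), a difference of −45.5 percentage points, against the median of −12.4 over all genes. In 2i it was 7 of 12 small (58.3%, 27.7% to 84.8%) and 20 of 22 ungated cells (90.9%, 70.8% to 98.9%). Cells on the high side had similar levels, with medians of 262, 214, 239 and 242 in the 4 groups.

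In N2B27 the mean of Max was 105 (small) against 257 (ungated), a log2 ratio of −1.28, and −1.22 (−1.29 to −1.15) from summed counts. The 4 pairs of index rows ran from −1.58 to −1.03. In 2i the means were 173 and 183, a ratio of −0.08, with pairs of rows on both sides of 0. The mean of log2 values, which weighs low cells more, gave −1.72 there and −3.46 in N2B27. With that summary all genes had medians of −1.36 in 2i and −0.76 in N2B27. Between media Max was at −0.71 in small cells, with the 4 pairs from −0.98 to −0.43, and at 0.49 in ungated cells, with pairs from 0.25 to 0.73. In S-phase cells alone the ratio between the gates in N2B27 was 0.027.

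Max carries an E-box next to its own start site. The letters CACGTG, which read the same on both strands, were searched in RefSeq promoter windows of GRCm38.p6 that run from 250 bases before to 50 bases after a start site. They are in a window of 8.09% of the 27025 genes of that table. A window was found for 8 of the 9 members, all but Myc, and 4 of the 8 hold the letters once. These 4 are printed because they are the letters that dimers of the network are known to bind, on the strand of the gene with the E-box in capitals. Each match is a description of the letters and no binding was measured.
Max, chr12:76962236-76962261, minus strand: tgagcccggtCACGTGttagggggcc
Mlx, chr11:101087240-101087265, plus strand: tgggttggatCACGTGactgagcctc
Mnt, chr11:74830791-74830816, plus strand: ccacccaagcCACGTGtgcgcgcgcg
Mxd4, chr5:34187914-34187939, minus strand: gctgggccacCACGTGctgttgctaa

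Mxd3, Mxd4 and Mnt, the MAX-binding repressors, had no count in most cells. Mxd3 (ENSMUSG00000021485, chromosome 13, 55325168 to 55329823, minus strand) encodes a MAX dimerization protein known from proliferating cells. It had 128 counts in 2i small, 325 in 2i ungated, 6 in N2B27 small and 1211 in N2B27 ungated cells, and at least 10 counts in 2, 3, 0 and 4 cells. The highest normalized count was 103, 123, 4.55 and 477 in the same order. No N2B27 small cell was on the high side, which allows a share of up to 16.8% by the exact interval, and the 4 high N2B27 ungated cells make up 19.05% (5.45% to 41.9%). From summed counts the log2 ratio between the gates in N2B27 was −7.63 (−9.08 to −6.51), and −0.73 (−1.04 to −0.43) in 2i. The mean stayed below the level at which ratios were counted. Of the exon bases of Mxd3, 4.43% overlap Prelid1, and reads there were not counted.

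Mxd4 (ENSMUSG00000037235, chromosome 5, 34173883 to 34187720, minus strand) encodes a MAX partner that rises as cells stop dividing in other tissues. It had no count in either group of small cells, 3 counts in 1 of 22 ungated 2i cells and 112 counts in 3 of 21 ungated N2B27 cells. All 3 of these cells were assigned to G2/M. Against a floor of 3 counts over the group, the mean of N2B27 small cells was at least 33.8-fold below that of N2B27 ungated cells. This bound is one on reads, and 1 cell held 59.8% of the 112 counts. It does not carry over to the share of cells with a count. Finding Mxd4 in 0 of 20 small cells still allows a share of up to 16.8% by the exact interval. That is above the 14.3% found in ungated cells, so no difference in this share is bounded. Between media in ungated cells the log2 ratio of summed counts was 5.29 (3.70 to 7.59).

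Mnt (ENSMUSG00000000282, chromosome 11, 74830920 to 74845725, plus strand) encodes the general antagonist of MYC at E-boxes. It had 31, 67, 21 and 118 counts in the 4 groups and reached 10 counts in 2, 2, 1 and 1 cells. In N2B27 ungated cells 99.2% of the counts were in 1 cell. Its ratios between groups therefore describe single cells. At least 10 counts of Mxd3, Mxd4 or Mnt were found in 3 of 12, 5 of 22, 1 of 20 and 8 of 21 cells of the 4 groups, 17 of 75 in all, and 1 cell had more than 1 of these genes.

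Mga (ENSMUSG00000033943, chromosome 2, 119897228 to 119969581, plus strand) encodes the MAX partner that anchors PRC1.6. Its lowest, median and highest normalized counts were 1.33, 293 and 1034 in 2i small, 1.05, 116 and 569 in 2i ungated, 0, 92.7 and 1134 in N2B27 small, and 0, 13.9 and 893 in N2B27 ungated cells. The highest cells were small cells in both media, although the ranges of the gates overlapped. Mga had at least 10 counts in 10 of 12 small (83.3%, 51.6% to 97.9%) and 20 of 22 ungated 2i cells (90.9%, 70.8% to 98.9%). Among those cells the median was 358 in small and 124 in ungated 2i cells. In N2B27 it was 13 of 20 small (65.0%, 40.8% to 84.6%) and 11 of 21 ungated cells (52.4%, 29.8% to 74.3%), with medians of 263 and 245.

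In 2i the mean of Mga was 314 (small) against 142 (ungated), a log2 ratio of 1.14. In N2B27 it was 290 against 156, a log2 ratio of 0.89 that does not reach 2-fold. It was past 2-fold in 9 of 16 alternatives, at up to 1.41 with poscounts size factors. The summed counts gave 1.04 (0.97 to 1.10) and 0.98 (0.92 to 1.04). All 4 pairs of index rows were higher in small cells in both media, from 0.86 to 1.39 in 2i and from 0.51 to 1.43 in N2B27. Between media the ratio was −0.12 in small and 0.13 in ungated cells, but the mean of log2 values gave −1.07 and −1.79. With that summary all genes had medians of −0.18 and −0.62. N2B27 minus 2i, the share of ungated cells with 10 counts differed by −38.5 percentage points, against a median of −10.2 over all genes. In N2B27 the higher level in small than in ungated cells is relative to other genes. With size factors from the spike-ins the ratio there was −0.04, against a median over all genes of −0.83. In 2i the same scaling kept Mga at least 2-fold higher in small cells, while the median gene lay at 0.79. Leaving the gene-rich cell out of that scaling turned the ratio in 2i to −0.29, while the median gene lay at −1.41. The direction in 2i with spike-in scaling thus depended on that cell.

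Mlx (ENSMUSG00000017801, chromosome 11, 101087277 to 101092207, plus strand) encodes the MAX-like partner of the glucose sensors. Of its exon bases, 19.3% overlap Psmc3ip, and reads there were not counted. Its lowest, median and highest normalized counts were 0, 77.5 and 357 in 2i small, 0, 294 and 574 in 2i ungated, 0, 80.1 and 1704 in N2B27 small, and 0, 159 and 724 in N2B27 ungated cells. The gates overlapped in both media, and 1 N2B27 small cell stood above every other cell. At least 10 counts were found in 7 of 12 small (58.3%, 27.7% to 84.8%) and 20 of 22 ungated 2i cells (90.9%, 70.8% to 98.9%), and in 11 of 20 small (55.0%, 31.5% to 76.9%) and 18 of 21 ungated N2B27 cells (85.7%, 63.7% to 97.0%).

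In 2i the mean of Mlx was 103 (small) against 293 (ungated), a log2 ratio of −1.49 (−1.43 from summed counts, −1.501 to −1.35), with pairs of index rows from −3.04 to −0.67. With size factors from the spike-ins this ratio was 0.46, and −2.74 when the gene-rich cell was left out of that scaling. All genes had medians of 0.79 and −1.41 in these settings. In N2B27 the means were 212 and 180, a ratio of 0.23, with pairs of rows on both sides of 0. Without the highest cell of each group the N2B27 ratio was −0.20, and with the mean of log2 values it was −1.60. All genes had medians of −0.28 and −0.76 in these settings. Between media the small cells had a ratio of 1.03 and the ungated cells −0.70, with pairs of rows from −0.34 to 2.95 and from −0.99 to −0.35. The ratio in small cells was 0.90 without the spike-in-rich cell, 0.72 without the highest cell of each group and 0.23 with the mean of log2 values. All genes had medians of 0.08, 0.28 and −0.18 in these settings. The ratio of Mlx turned to −1.77 with size factors from the spike-ins, and was 1.43 when the gene-rich cell was left out of that scaling. All genes had medians of −1.59 and 0.62 there.

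The MYC genes and their partner were then compared within the same cells. Mycn and Max both had at least 10 counts in 19 of 22 ungated 2i and 19 of 21 ungated N2B27 cells. In small cells this was so in 7 of 12 in 2i and 5 of 20 in N2B27. The remaining N2B27 small cells were 7 with Mycn alone, 4 with Max alone and 4 with neither. In 2i small cells it was 1 with Mycn alone, none with Max alone and 4 with neither. Myc and Mycn were together in 15 of 75 cells, Myc was without Mycn in 3, and Mycn was without Myc in 46. Of 75 cells, 11 had at least 10 counts of none of Myc, Mycn and Mycl, and all but 1 of these were small cells (4 in 2i and 6 in N2B27). All 3 MYC genes were found in 4 cells. Mga was found without Mycn in 8 cells, 2 of them 2i small and 6 N2B27 small cells. These counts of pairs were not set against those that the shares of the single genes would give. Most genes reached 10 counts in a smaller share of small than of ungated cells, 7403 of 8730 in 2i and 6655 in N2B27. The counts are therefore no result about the pairs.

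**Figure D3:**
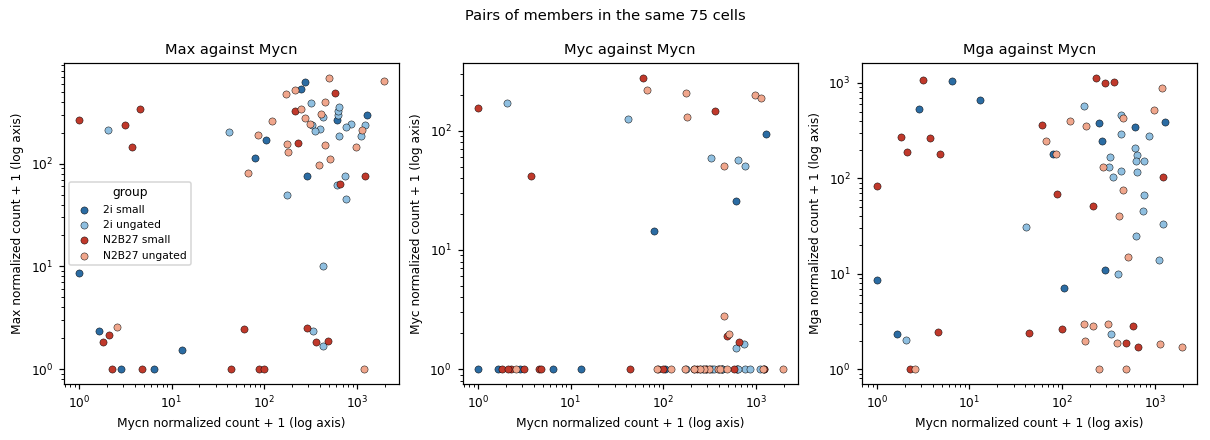
Each panel plots 2 members in the same 75 cells, as normalized count plus 1 on log axes, with the groups in colour. Most ungated cells were high for both Mycn and Max, and the cells low for 1 or both were mainly small cells. Myc lay at 0 in most cells that were high for Mycn.

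After the mean of each group was subtracted, Pearson's r of log2(normalized count + 1) over the 75 cells was 0.29 for Mycn and Max, −0.04 for Myc and Mycn, 0.14 for Myc and Max, 0.09 for Mycn and Mga and −0.04 for Max and Mga. Some members also moved with the number of genes detected and the share of spike-ins. For Max, r was 0.38 with the number of genes detected and −0.43 with the log2 share of spike-ins, and for Mycn it was 0.30 and −0.33. For Mga it was 0.11 and −0.12, and for Mxd4 0.05 and −0.02. What lies behind these values was not tested, and none was taken over all genes. All of these r are descriptions over cells of 4 samples, and correlations of this size are weak in sparse counts. The genes most like Myc were Sdr39u1 (r of 0.57), Kmt5c (0.56), Lcmt2 (0.51), Pclaf (0.50) and Ccn1 (0.50). Those most like Mycn were Anapc5 (0.60), Ddx18 (0.59), Gm7729 (0.57), Fbl (0.57) and Rae1 (0.56), and those most like Max were Ehd1 (0.63), Usf1 (0.62), Gm12345 (0.61), Usp5 (0.61) and Flcn (0.60). Anapc5 is a subunit of the anaphase-promoting complex, and Ddx18 and Fbl (fibrillarin) are nucleolar proteins of ribosome building. USF1 is another factor that binds E-boxes. Over the 6646 genes searched the median r was 0.11 for Myc, 0.13 for Mycn and 0.16 for Max.

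Cells were assigned to a phase with cyclone, whose marker genes include no member. The phases moved with the gate, with 6, 0, 6 and 2 cells in G1 and 1, 14, 3 and 15 in G2/M among the 4 groups. Over all groups at least 10 counts of Myc were found in 0 of 14 G1 cells (which allows a share of up to 23.2% by the exact interval), 5 of 28 S cells (17.9%, 6.06% to 36.9%) and 13 of 33 G2/M cells (39.4%, 22.9% to 57.9%). The G1 cells had 0 counts of Myc in all. Max was found in 5 of 14 G1 (35.7%, 12.8% to 64.9%), 19 of 28 S (67.9%, 47.6% to 84.1%) and 31 of 33 G2/M cells (93.9%, 79.8% to 99.3%). Mycn was found in 7 of 14 (50%, 23.0% to 77.0%), 23 of 28 (82.1%, 63.1% to 93.9%) and 31 of 33 cells (93.9%, 79.8% to 99.3%). Mlx gave 7 of 14, 20 of 28 and 29 of 33, and Mga 10 of 14, 18 of 28 and 26 of 33. These shares pool cells of 4 samples whose phases moved with the gate. No share over all genes was taken by phase, so the pattern cannot be called particular to these members.

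Within N2B27 small cells the median spike-in share was 4.93% in G1, 2.36% in S and 1.31% in G2/M, and the median number of genes was 6339.5, 7758 and 7762. Phase and spike-in share thus moved together, and the part of each in the phase pattern was not tested. Mycn had a mean of 88.1 in the 6 G1, 309 in the 11 S and 141 in the 3 G2/M cells of that group. Mga had 416, 150 and 550. In the 6 G1 cells of 2i small its mean was 414, against 180 in the 5 S cells. Myc was found in all 3 G2/M cells of N2B27 small cells, at 40.9, 145 and 278 normalized counts.

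**Figure D4:**
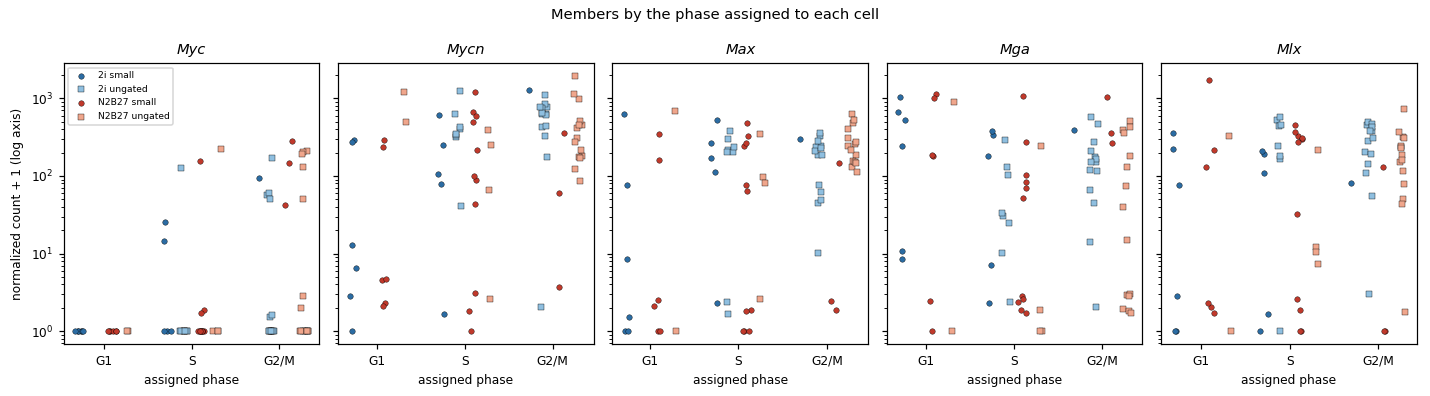
The 5 members whose mean reached 20 normalized counts are plotted by the phase assigned to each cell, as normalized count plus 1 on a log axis, with the groups in colour. Myc lay at 0 in each of the 14 G1 cells, and Mycn and Max were high in 31 of 33 G2/M cells, whereas Mga was high in G1 cells too.

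Genes around the members were taken from 8 lists, and ratios were read for the genes that passed the mean of 20. Counts past 2-fold in a list stand beside 11.8% higher and 17.1% lower of all genes between the gates in N2B27, 16.3% and 27.8% in 2i, 22.3% and 19.2% between media in small cells, and 7.49% and 9.92% in ungated cells. Of 31 genes known to be activated by MYC, 29 passed. Between the gates in N2B27, 21 of 29 were lower and 8 higher in small cells, with a median log2 ratio of −0.27 against −0.12 for all genes, and 1 lay past 2-fold in each direction. These were Cad, of pyrimidine synthesis, at −1.60 (means of 55.4 and 170), and Tfrc, the transferrin receptor, at 2.31 (88.4 and 17.0). In 2i the median was −0.25 against −0.36 for all genes, with 4 genes past 2-fold lower and 3 higher. Ldha, lactate dehydrogenase, lay at −1.42 (1082 and 2896) and Fbl at −1.33 (17.9 and 46.8). The nucleolar gene Gnl3 and the nucleoside diphosphate kinase gene Nme1 lay at 2.44 and 2.19, but at 0.06 and 0.69 without the spike-in-rich cell, and no gene was then past 2-fold higher. Between media the medians were −0.07 in small and −0.11 in ungated cells. None of the 29 was higher in N2B27 by 2-fold in either gate, where Myc itself was. The other 2 of the list did not pass. Ccnd2 lay at 1.59 in small cells (means of 5.02 in N2B27 and 1.00 in 2i) and at 2.72 in ungated cells (29.4 and 3.61). It reached 10 counts in at most 3 cells of any group. Tert lay at 0 and 0.34. Of the 29, Tfrc was the only one past 2-fold in ungated cells, at −2.38 (17.0 in N2B27 and 93.0 in 2i). In small cells 3 were lower, Nme1 at −2.17 and Gnl3 at −2.13 among them, and 1 was without that cell, where these 2 lay at −0.67 and 0.25.

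Around Mga, 6 of 9 partners in PRC1.6 passed. L3mbtl2, a subunit of the complex, had N2B27 means of 125 (small) and 435 (ungated), a ratio of −1.80, and was the only partner past 2-fold there. In 2i Pcgf6, the PCGF subunit particular to the complex, lay at −1.16 (142 and 318) and the DNA-binding subunit E2f6 at −1.03 (37.2 and 76.8). Without the spike-in-rich cell they lay at −1.05 and −0.90. Cbx3, a heterochromatin protein, lay at 2.14, and at 0.98 without that cell. Between media in small cells 3 were higher in N2B27, led by E2f6 at 1.70 and Pcgf6 at 1.39, and 2 were lower, Cbx3 at −2.39 (−1.22 without that cell) and L3mbtl2 at −1.09, whereas in ungated cells no partner passed 2-fold.

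Of 12 germline genes that PRC1.6 is known to repress, 6 passed, and the genes of the whole list lay on both sides of 0 between the gates. Over all 12 genes, 7 lay above 0 and 4 below in N2B27, with a median of 0.33, and 6 lay above and 6 below in 2i, with a median of 0.04. The 6 genes that passed were all above 0 in both media, but some passed through their level in small cells, so this is no result about the list. The 6 that did not pass were all below 0 in 2i, and in N2B27 4 were below 0, with Mael at −2.08 and Tex101 at −4.66, chosen after their values were seen. Sycp3, of the synaptonemal complex, had N2B27 means of 41.0 (small) and 11.1 (ungated), a ratio of 1.79, and 2i means of 161 and 20.2, a ratio of 2.93. Tdrkh, of the piRNA pathway, had 26.8 and 6.38 (1.92) and 66.4 and 1.35 (4.84), the latter from 4 of 12 and 1 of 22 cells with at least 10 counts. Between media in ungated cells 4 of the 6 that passed were higher by 2-fold in N2B27 (7.49% of all genes were), while over all 12 genes 7 lay above 0 and 5 below. The 4 were led by Stag3, a meiotic cohesin subunit, at 1.87 (35.6 and 9.06) and the germ cell helicase Ddx4 at 1.73 (71.6 and 20.9). In small cells 3 were higher and 2 lower, with Ddx4 at 2.98 (187 and 22.7), Stag3 at 1.57, Sycp3 at −1.95 and Tdrkh at −1.27. Few cells carried them, and Ddx4 reached 10 counts in 6 of 20 N2B27 small cells and 6 of 21 ungated ones. The E-box is in a promoter window of 8 of these 12 genes (66.7%), against 8.09% of all genes. Those of Ddx4, Stag3 and Sycp3 are printed, as sites of the kind that MGA with MAX is known to bind.
Ddx4, chr13:112652324-112652349, minus strand: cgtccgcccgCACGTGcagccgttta
Stag3, chr5:138280329-138280354, plus strand: cgctggagccCACGTGacaggactgc
Sycp3, chr10:88459513-88459538, plus strand: cgttggctccCACGTGagaacgggca
Sycp3, chr10:88459534-88459559, plus strand: gggcatggagCACGTGctaggaggcg
The window of Mael also holds these letters and is not printed. Those of Tdrkh and Tex101 do not hold them.

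Around Mlx, Mlxip was the one of 4 further network genes that passed, at −0.77 and −0.42 between the gates in N2B27 and 2i. Both genes taken as activated by MLX with MLXIP passed. Txnip, an inhibitor of glucose uptake, had means of 49.1, 188, 193 and 223 in the 4 groups. Arrdc4, its relative, had 72.6, 113, 167 and 109.6. For Txnip this gave −1.92 between the gates in 2i and 1.95 between media in small cells, and Arrdc4 lay at −0.63 and 1.19. Mlx lay at −1.49 and 1.03 in the same comparisons, which share the 2i small cells.

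Of 14 cofactors of MYC, 13 passed. Between the gates in N2B27, 2 were higher (Zbtb17 at 1.74 and the acetyltransferase Ep300 at 1.70) and 2 lower (Ccnt1 at −1.16 and Kat5 at −1.10). In 2i, Ep400 and Bptf were higher, at 1.70 and 1.38, and 5 were lower, led by the elongation kinase Cdk9 at −2.17 and Kat5 at −1.76, of which 4 were without the spike-in-rich cell. Kat5, an acetyltransferase, was thus past 2-fold lower in small cells in both media. Between media in small cells 2 were higher, Ep300 at 2.62 and Kat2a at 1.04 (0.92 without that cell), and 3 lower (4 without it), led by Ccnt1 at −1.77 and Ep400 at −1.62. In ungated cells Zbtb17 alone passed 2-fold, at −2.001.

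Of 9 genes of MYC turnover, 8 passed. The ubiquitin ligase gene Huwe1 was higher in small cells in both media, at 1.27 in N2B27 (201 and 83.0) and 2.49 in 2i (493 and 87.1). In 2i, Gsk3b, a kinase that marks MYC for decay, lay at 1.76, and Aurka, the mitotic kinase that shields N-MYC, at −2.11, followed by the deubiquitinase Usp36 at −1.80. Between media in small cells Usp36 was higher, at 1.12 (0.998 without the spike-in-rich cell), and 3 genes were lower, led by Gsk3b at −1.56 and Huwe1 at −1.29, and no gene passed 2-fold in ungated cells. All 6 SIN3 corepressor genes passed, with none past 2-fold between the gates in N2B27. In 2i Sin3a lay at −1.54, and Sap30 at 2.16 but at −0.24 without the spike-in-rich cell. Between media in small cells Sap30 and Hdac1 lay at −1.99 and −1.77, but at 0.41 and −0.32 without that cell, and in ungated cells Sin3a lay at −1.21.

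**Figure D5:**
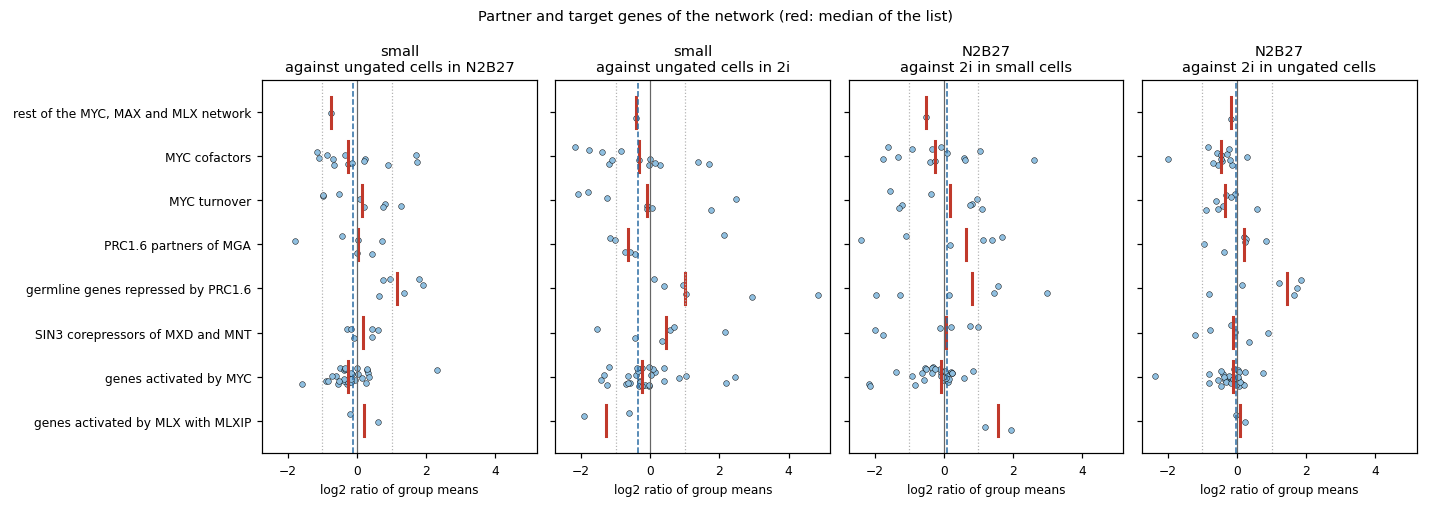
Each panel plots 1 comparison, with a point for each gene that passed the mean of 20 normalized counts, its log2 ratio of group means on the horizontal axis and its list on the vertical axis. Red lines are the medians of the lists and the dashed line is the median of all genes. Genes below that mean are not drawn, among them 6 of 12 germline genes. The medians of the genes activated by MYC lay at −0.27 and −0.25 between the gates in N2B27 and 2i.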

How the data were processed

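Single cells from 4 samples were analysed. The authors trimmed reads with Trim Galore 0.4.4, aligned them to GRCm38 (mm10) with GSNAP, counted them on Ensembl genes with HTSeq and deposited raw read counts per cell, without normalization. HTSeq leaves out reads on more than 1 gene. Of all counts 72.4% were on genes, and rows that name no gene were left out. Columns were matched to samples by plate and index names. Symbols and positions came from GENCODE M21, a later release on the same build, for 45143 of 46078 genes.

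Cells more than 3 median absolute deviations below their plate's median in log counts or log genes were left out (scuttle 1.12.0). So were cells as far above it in mitochondrial share, which kept 75 of 96. There was no upper limit on counts or genes. Doublets were not called. Size factors came from DESeq2 1.42.0, over 1227 genes with a count in every kept cell, and phases from cyclone in scran 1.30.0, in R 4.3.3. Python 3.11.15, numpy 2.4.6, scipy 1.17.1, pandas 2.3.3 and matplotlib 3.10.9 did the rest. The calculation of the ratios was tested on simulated counts with known changes in N2B27 small cells. Those counts had the same relative spread for every gene and no set split of cells into high and low. They therefore do not show how stable such ratios are in these cells. Intervals are exact Poisson and exact Clopper-Pearson at 95%.

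The members and lists were chosen with earlier results of these data known. All members are named, at most 2 genes per direction of each list and comparison among those past 2-fold, and the 5 genes most correlated with Myc, Mycn and Max among those with a count in at least 50% of cells. Sequences are those of RefSeq. Alternatives covered the filter on cells, the normalization, the summary over cells, thinning to 1300000 counts, pseudocounts, the filter on low values, phase and 2 odd cells. The spike-in scaling without the gene-rich cell and the lists without the spike-in-rich cell were added after seeing the data.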

Additional observations from a re-analysis of the deposited data

Results flagged for a closer look

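The groups are 1 sample each, so no difference between 2 effects was tested. Members are given here because their ratio had opposite signs in the 2 gates or in the 2 media, with at least 1 of the pair past 2-fold. Between media, Mlx lay at 1.03 (log2) in small cells and at −0.70 in ungated cells, a difference of 1.73. The same 4 means put its ratio of small against ungated cells at 0.23 in N2B27 and −1.49 in 2i, again a difference of 1.73. In N2B27 small cells 29.7% of the Mlx counts were in 1 cell. Without the highest cell of each group the N2B27 means of Mlx were 133 (small) and 153 (ungated). With the mean of log2 values its N2B27 ratio was −1.60, on the same side as in 2i, where all genes in N2B27 had a median of −0.76. Mxd3 had −3.11 in small and 2.12 in ungated cells between media, a difference of −5.22, from at most 4 cells with 10 counts in any group. Mycl had −1.21 in N2B27 and 0.42 in 2i between the gates, a difference of −1.63, from at most 3 such cells.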

How the results depend on the processing

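The count of members past 2-fold moved with the processing, and the causes were not tested. Between the gates in N2B27 it was 2, both lower, and it was 5 with size factors from the spike-ins (with or without the gene-rich cell), 4 with the mean of log2 values, 4 with the highest cell of each group left out, and 6 with no filter on low values. In these settings, with that cell kept, 41.1%, 42.4%, 25.6% and 16.4% of all genes were past 2-fold lower. The shares of all genes past 2-fold higher were 6.57%, 4.38%, 10.1% and 11.9%. Between the gates in 2i it was 3, and 1 with size factors that use genes absent from some cells (poscounts). With poscounts 34.2% of all genes were past 2-fold higher and 15.7% lower. Between media in small cells it was 2, both higher, and it was 6 with the spike-ins, all lower, 2 with the mean of log2 values, both lower, 0 with pooled counts or with S cells alone, and 1 with no filter on cells, CPM, poscounts, the highest cell left out, thinned cells, a minimum mean of 100, or without the spike-in-rich cell. Between media in ungated cells it was 1, and it was 2 with fixed limits on cells, scran or the spike-ins (with or without the gene-rich cell), all higher, 2 with the mean of log2 values, both lower, 3 with no filter on low values or with S cells alone, and 0 with CPM, pooled counts, thinned cells or a minimum mean of 100. The minimum of 20 left 4 members with no filter on cells, CPM, poscounts, pooled counts or thinned cells, 6 with scran and 7 with the spike-ins.

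Directions of values past 2-fold turned as follows. With the spike-ins, Myc was at −0.41 and Mlx at −1.77 between media in small cells, and Mlx at 0.46 between the gates in 2i. All genes had medians of −1.59 and 0.79 in these comparisons. With the spike-ins and without the gene-rich cell, a setting added after seeing the data, Mga was at −0.29 between the gates in 2i, where all genes had a median of −1.41. With S cells alone, which left 4 N2B27 ungated cells, Mycn was at 0.80, Max at 0.027 and Mycl at 3.23 between the gates in N2B27, and Mxd3 at −2.66 and Mxd4 at −0.39 between media in ungated cells. No paired analysis was possible because each group is 1 sample. Mycl, Mxd3, Mxd4 and Mnt reached 10 counts in at most 4 cells of any group, so their ratios rest on few cells.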
